A study of Mus musculus with 17 samples.

Results

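Accessible chromatin was described at the loci of 8 interferon regulatory factors (IRFs) of mouse macrophages: Irf1, Irf2, Irf3, Irf4, Irf5, Irf7, Irf8 and Irf9. The members were chosen by gene name, and every site within 20 kb of their gene bodies in the GENCODE annotation of GRCm38 (mm10) was taken, a site being merged from the best 24389 peaks of each list and seen in at least 2 lists. This gave 43 elements out of 34155 sites in the whole series. Of 1089 peak intervals deposited in these windows, 197 lay outside the 43 elements and were not analysed. Of the 43 elements, 5 lay at Irf1, 12 at Irf2, 3 at Irf3, 4 at Irf4, 6 at Irf5, 2 at Irf7, 8 at Irf8 and 3 at Irf9. The data were 17 peak lists of ATAC-seq, in which the Tn5 transposase cuts and tags open DNA, made from bone marrow-derived macrophages (BMDMs). The cells came from male C57Bl6/J mice of 6 to 12 weeks and were matured for 7 days in medium conditioned by L929 cells. Wild-type (WT) littermates gave 8 lists and mice lacking Nur77, the nuclear receptor encoded by Nr4a1, gave 9 lists (Nur77-KO, here KO). The cells had received no lipopolysaccharide (LPS, 0 h) or 100 ng/ml LPS for 1 or 18 h, with 3 lists in each of the 6 groups except WT at 1 h, which had 2. The KO mice carried a whole-body deletion, made by crossing a loxP-flanked Nr4a1 locus to a CMV promoter-driven Cre that was then bred out, so loss of Nur77 was not limited to macrophages. The genotype label of the KO samples reads "cre". The labels number the replicates without saying whether they were separate animals, so the p-values measure the spread between these samples, which may be technical. One of the WT lists at 1 h is named replicate 1-2 in the labels.

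IRFs are transcription factors that share a DNA-binding domain and recognise the interferon-stimulated response element (ISRE). Bacterial LPS acts on macrophages through Toll-like receptor 4, which activates NF-kB and AP-1 and, through IRF3, the interferon-beta gene. Interferon-beta then signals back through the complex ISGF3, of which IRF9 is a subunit, and this complex drives IRF7 and many antiviral genes. IRF1 is itself an early target of NF-kB, IRF2 can compete with IRF1 for the same sites, IRF5 takes part in inflammatory activation, IRF4 is linked to alternative activation, and IRF8 works with PU.1 to set macrophage identity. The gamma-activated site (GAS) is a further element of interferon-responsive genes.

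The DNA under the summits that carry the results was read from the GRCm38 genome, plus strand, from 100 bp before to 100 bp after the summit. The sequences shown are those of the 8 elements called with LPS in the tests below, of 3 summits called when ranked on their own (Irf1 7.0 kb upstream, Irf5 at its first start and Irf2 105.5 kb downstream), and of 2 neighbours for comparison (the Irf1 promoter and the element 2.6 kb upstream of Irf7). Capitals mark matches to the ISRE core (GAAANNGAA), the GAS (TTCNNNGAA), NF-kB, the PU.1-IRF composite (GGAANNGAA) and AP-1 (TGANTCA), on either strand. The ISRE core can overlap the composite, and the GAS can overlap NF-kB. The windows were chr7:141266218-141266418 (Irf7 promoter), chr7:141268936-141269136 (2.6 kb upstream of Irf7), chr14:55604030-55604230 (Irf9 promoter), chr14:55591196-55591396 (Psme2 promoter, 12.3 kb upstream of Irf9), chr11:53763797-53763997 (6.1 kb upstream of Irf1), chr11:53762949-53763149 (7.0 kb upstream of Irf1), chr11:53769887-53770087 (Irf1 promoter), chr8:46789494-46789694, chr8:46842756-46842956, chr8:46845120-46845320 and chr8:46869463-46869663 (49.9, 103.1, 105.5 and 129.8 kb downstream of the Irf2 start site), chr7:44997345-44997545 (Irf3 promoter) and chr6:29526831-29527031 (0.3 kb downstream of the first Irf5 start).
Irf7 promoter: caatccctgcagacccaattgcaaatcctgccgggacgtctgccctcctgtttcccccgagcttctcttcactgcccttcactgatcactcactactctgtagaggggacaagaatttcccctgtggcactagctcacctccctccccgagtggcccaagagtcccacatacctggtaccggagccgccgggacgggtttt
Irf7 2.6 kb upstream: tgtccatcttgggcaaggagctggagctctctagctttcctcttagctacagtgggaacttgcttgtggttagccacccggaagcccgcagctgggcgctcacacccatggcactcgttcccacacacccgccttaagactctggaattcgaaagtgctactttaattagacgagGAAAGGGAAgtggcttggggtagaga
Irf9 promoter: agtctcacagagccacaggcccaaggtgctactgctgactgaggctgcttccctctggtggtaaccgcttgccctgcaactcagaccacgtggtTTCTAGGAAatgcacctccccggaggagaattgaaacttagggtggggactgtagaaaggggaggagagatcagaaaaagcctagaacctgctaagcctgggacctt
Irf9 12.3 kb upstream: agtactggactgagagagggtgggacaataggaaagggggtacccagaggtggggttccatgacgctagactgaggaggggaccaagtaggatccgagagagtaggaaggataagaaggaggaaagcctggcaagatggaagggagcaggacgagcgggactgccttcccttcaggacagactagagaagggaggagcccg
Irf1 6.1 kb upstream: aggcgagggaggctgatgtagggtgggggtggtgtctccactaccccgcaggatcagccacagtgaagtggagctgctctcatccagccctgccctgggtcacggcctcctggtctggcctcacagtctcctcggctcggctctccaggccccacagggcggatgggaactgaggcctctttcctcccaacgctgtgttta
Irf1 7.0 kb upstream: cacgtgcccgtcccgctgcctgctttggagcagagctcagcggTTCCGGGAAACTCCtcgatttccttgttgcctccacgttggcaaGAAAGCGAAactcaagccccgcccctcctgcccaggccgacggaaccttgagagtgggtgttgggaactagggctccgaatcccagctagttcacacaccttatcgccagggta
Irf1 promoter: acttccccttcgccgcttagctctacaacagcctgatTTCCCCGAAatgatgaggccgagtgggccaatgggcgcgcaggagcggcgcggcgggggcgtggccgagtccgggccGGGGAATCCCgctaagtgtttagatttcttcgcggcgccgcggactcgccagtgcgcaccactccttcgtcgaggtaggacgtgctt
Irf2 49.9 kb downstream: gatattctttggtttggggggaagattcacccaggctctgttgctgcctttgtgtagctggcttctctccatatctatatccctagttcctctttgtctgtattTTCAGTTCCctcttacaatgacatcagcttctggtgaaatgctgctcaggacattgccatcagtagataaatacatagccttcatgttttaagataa
Irf2 103.1 kb downstream: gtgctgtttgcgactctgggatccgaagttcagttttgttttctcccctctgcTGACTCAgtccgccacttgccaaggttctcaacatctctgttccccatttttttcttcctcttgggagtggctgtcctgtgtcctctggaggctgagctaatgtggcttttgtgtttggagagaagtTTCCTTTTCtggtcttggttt
Irf2 105.5 kb downstream: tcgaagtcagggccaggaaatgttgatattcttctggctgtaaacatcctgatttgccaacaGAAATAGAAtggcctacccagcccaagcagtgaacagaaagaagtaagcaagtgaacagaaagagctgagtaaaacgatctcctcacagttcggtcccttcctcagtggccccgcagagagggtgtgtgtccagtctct
Irf2 129.8 kb downstream: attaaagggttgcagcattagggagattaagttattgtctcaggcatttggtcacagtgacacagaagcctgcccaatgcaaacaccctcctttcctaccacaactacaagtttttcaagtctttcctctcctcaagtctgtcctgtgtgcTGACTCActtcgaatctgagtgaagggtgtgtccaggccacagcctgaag
Irf3 promoter: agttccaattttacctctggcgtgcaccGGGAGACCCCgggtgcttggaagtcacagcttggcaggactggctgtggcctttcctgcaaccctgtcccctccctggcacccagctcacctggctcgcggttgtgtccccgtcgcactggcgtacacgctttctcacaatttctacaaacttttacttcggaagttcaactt
Irf5 0.3 kb downstream: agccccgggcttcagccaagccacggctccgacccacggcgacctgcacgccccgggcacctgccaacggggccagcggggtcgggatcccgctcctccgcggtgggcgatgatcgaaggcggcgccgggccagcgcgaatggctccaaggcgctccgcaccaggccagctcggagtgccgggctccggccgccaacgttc

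The Irf9 promoter held a GAS 6 bp from its summit, 559 bp downstream of the first start site. In the lists at 18 h the best Irf9 summit lay 730, 742 and 750 bp downstream in WT and 467, 563 and 747 bp downstream in KO, so in 4 of those 6 lists it was outside the window shown. The Irf1 summit 7.0 kb upstream held an ISRE core, a GAS and an NF-kB motif within its 201 bp, and the Irf1 promoter a GAS and an NF-kB motif. None of the 5 motifs was in the windows of the Irf7 promoter, the Irf1 summit 6.1 kb upstream, the Psme2 promoter or the Irf5 summit, while the summit 2.6 kb upstream of Irf7 held an ISRE core. The Irf2 summits at 103.1 and 129.8 kb each held an AP-1 motif. An ISRE core was in the window at 105.5 kb and also in that of the 103.1 kb element, 80 bp from its summit. The Irf2 summit at 49.9 kb held a composite and the Irf3 promoter an NF-kB motif. Over the 43 elements, the ISRE core was found in 3, the composite in 7, the GAS in 5, AP-1 in 8 and NF-kB in 4. In all 34155 sites these motifs were found in 7.70%, 8.63%, 5.55%, 20.1% and 4.85% of windows. Of 3 further motifs, PU.1 (GAGGAAGT) was found in 5 elements against 7.93% of all sites, C/EBP (TTGCNNAA) in 8 against 11.2%, and NBRE (AAAGGTCA), the element of a Nur77 monomer, in 0 against 1.02%. Outside these summit windows, the NBRE was found in 1 of 11 RefSeq promoter windows of the members (GRCm38.p6, each of 300 bp), against 1.51% of all 32851 such windows. It was that of the second Irf9 start (chr14:55604329-55604628), which lies inside the Irf9 promoter element. None of the 8 motifs was found in the summit windows of 14 elements. A match is a description of letters in this window and not a bound site.

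Depth was uneven, which touches each value given here. A background level recovered from the lists ran from 0.382 to 9.75 reads per kb, with 0.382 and 1.61 in the WT lists at 1 h, 1.10 to 1.76 in the KO lists at 18 h and 4.62 to 8.38 in the WT lists at 18 h. By this index the shallowest lists after WT 1 h replicate 1-2 were KO 1 h replicate 2 (0.593) and KO 0 h replicate 3 (0.720). The index divides the recovered level by the shortest peak, which was 66 bp in KO 18 h replicate 1 and 152 to 219 bp elsewhere. Undivided, that list had a level of 0.105, beside 0.104 in KO 1 h replicate 2 and 0.130 in KO 0 h replicate 3. KO 18 h replicate 1 may be as shallow as these, and its place by depth is uncertain. Peaks were therefore compared only by rank inside a list, from rank 1 for the smallest p-value. The rank score was log2(24389/rank), where 24389 is the number of peaks in the shortest list, and was 0 beyond that rank or with no peak. A change of 1 in the score is a 2-fold move in rank, and a rise means a better rank among the open sites of the same cells. In the shallow lists many peaks shared a p-value and so a rank. KO 18 h replicate 1 stood apart from the other lists, with the lowest weight when lists were weighted by their fit (0.129). Macrophage markers carried a promoter site at 5 of 7 genes, among them Adgre1, Itgam and Spi1 in all 17 lists and Lyz2 in 16, while Csf1r and Cd68 had none, and at neutrophil markers this held for 2 of 7 genes (S100a8 in 15 lists, Camp in 10). A promoter site was present at 1 of 4 B cell (Ms4a1, 10 lists), 1 of 4 T cell (Cd3d, 17 lists), 1 of 2 dendritic cell (Zbtb46, 13 lists), 1 of 3 fibroblast (Col1a1, 14 lists) and 0 of 3 erythroid markers. The share of other cells in these results was not tested. The best peak of the Nr4a1 gene body ranked between 4037 and 6000 in the WT lists at 0 and 1 h, above all KO lists at those times (7334 to 22276). The WT lists at 18 h ranked between 11773 and 14268, and in KO it ranked 27831 and 14372, with no peak in replicate 2. Which exons were deleted is not given in the sources used here, so a peak left in KO does not go against the label.

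The 43 elements were 9 promoter elements, with a summit within 1 kb of a start site of the member, and 34 distal ones. Of the distal elements, 12 lay upstream, 10 within the gene and 12 downstream. The summit fell in an exon in 7, in an intron in 19 and between genes in 17. Their widths ran from 365 to 9100 bp, with a median of 1797 bp, since neighbouring peaks merge. A peak of any rank was found in all 17 lists at 21 of the elements, and a peak within the best 24389 in all 17 lists at 18 of them, among them the promoters of Irf1, Irf2, Irf3, Irf5, Irf7, Irf8 and Irf9. The Irf4 promoter was within the best 24389 peaks of 10 lists, and a second Irf2 promoter, 53.1 kb into the gene, of 9 lists. The elements at the edge of the windows were 129.8 kb downstream of the Irf2 start and 20.2 kb upstream of Irf8. Each reached into its window while its summit lay 22.1 kb and 20.2 kb from the gene body. The nearest site left outside any window began 20.7 kb from Irf4, and its score differed by 0.44 at 1 h and by -0.17 at 18 h.

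**Figure D1:**
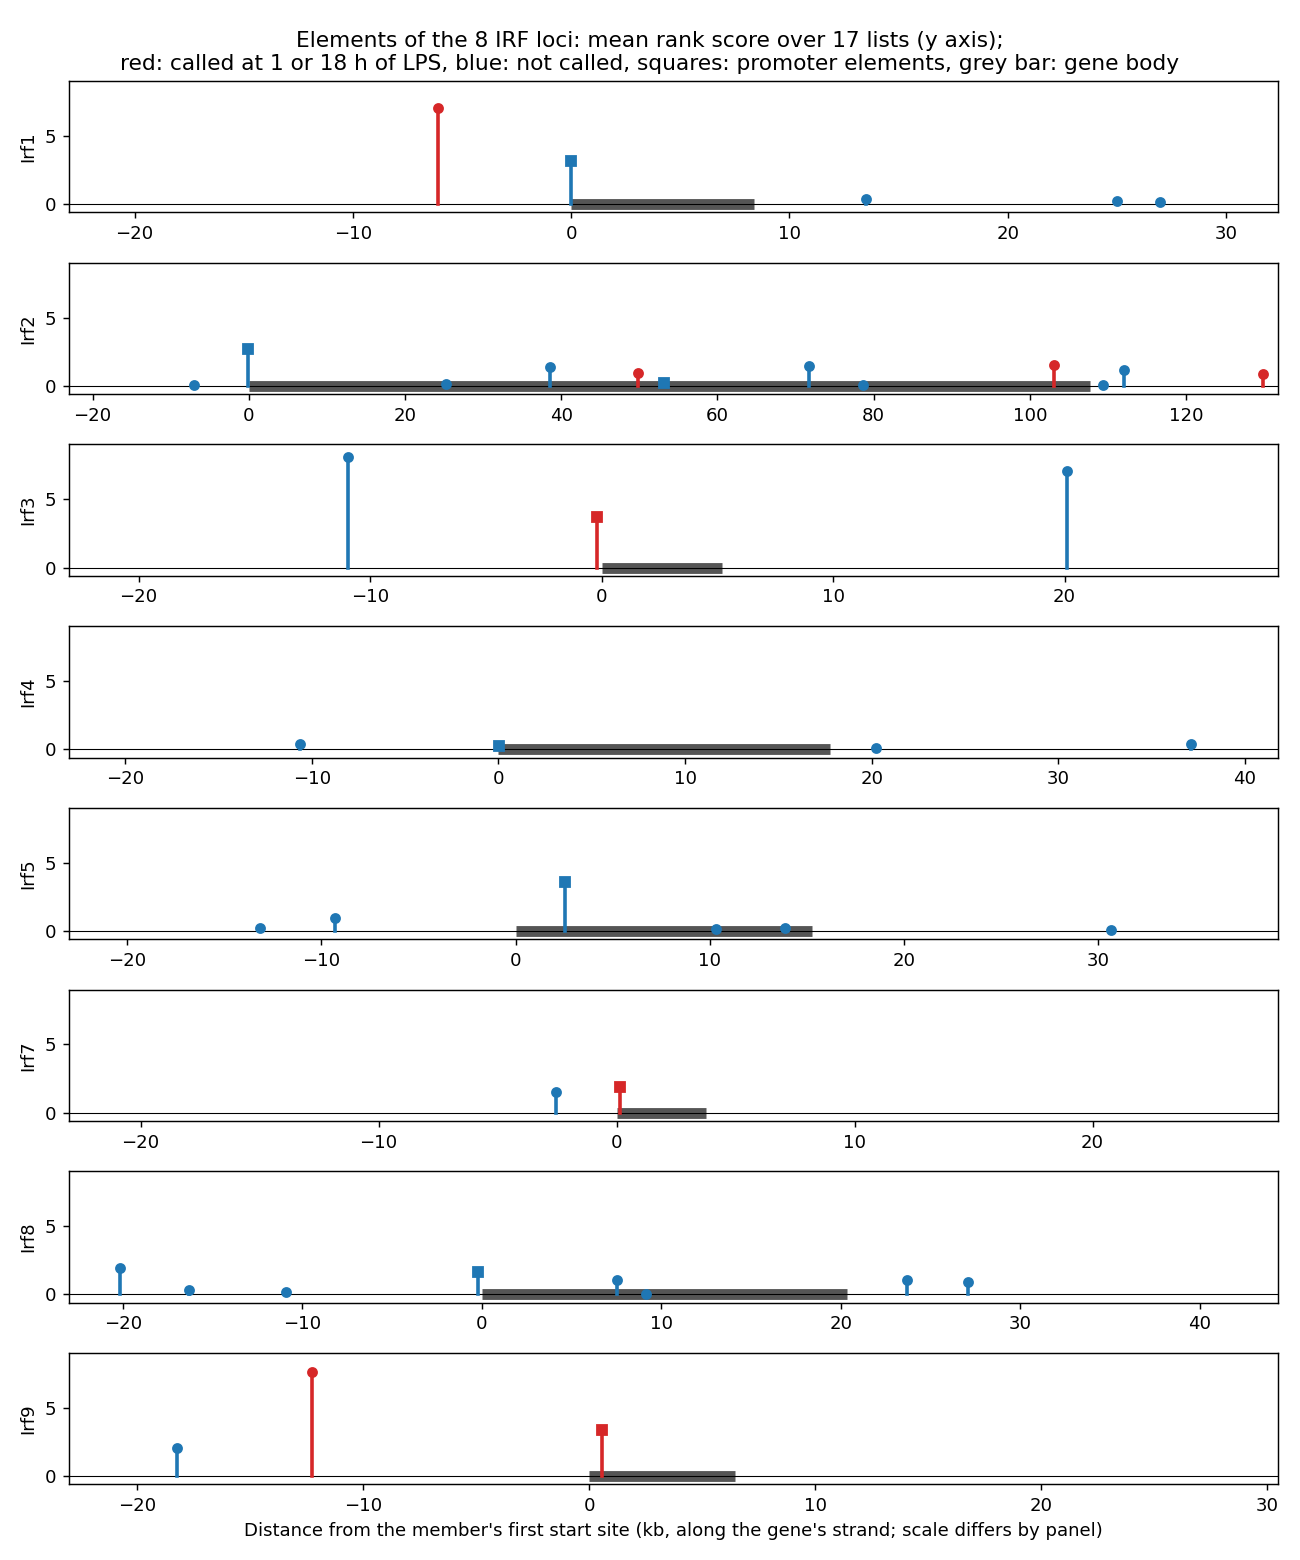
Position of the 43 elements along the 8 loci, with the distance in kb from the first start site of the gene on the x axis and the mean rank score over the 17 lists on the y axis. Squares are promoter elements, red marks an element called at 1 or 18 h of LPS, and grey bars are gene bodies. The tallest elements lie 11.0 kb upstream and 20.1 kb downstream of the Irf3 start, 12.3 kb upstream of Irf9 and 6.1 kb upstream of Irf1.

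The strongest elements of the loci were not always at the IRF promoters. The Irf1 element 6.1 kb upstream (chr11:53761713-53765608, intergenic by its summit) ranked from 47 to 1220 over the 17 lists, whereas the Irf1 promoter (chr11:53768453-53773251) ranked from 1738 to 5024. Every list placed the upstream element above the promoter. At Irf3, the elements 11.0 kb upstream and 20.1 kb downstream ranked from 24 to 376 and from 42 to 714, and they are the promoters of Prmt1, a protein arginine methyltransferase gene, and Rras, a small GTPase gene. The Irf3 promoter is shared with the divergent gene Bcl2l12. Near Irf9, the elements 18.2 and 12.3 kb upstream are the promoters of Emc9 and of Psme2, a proteasome activator subunit gene. These 5 elements lie at start sites of neighbouring genes, so their openness cannot be assigned to the IRF gene. At the other end, the highest mean score of a distal Irf4 element was 0.41, 10.6 kb upstream, in a range where 0 is rank 24389 or worse.

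**Figure D2:**
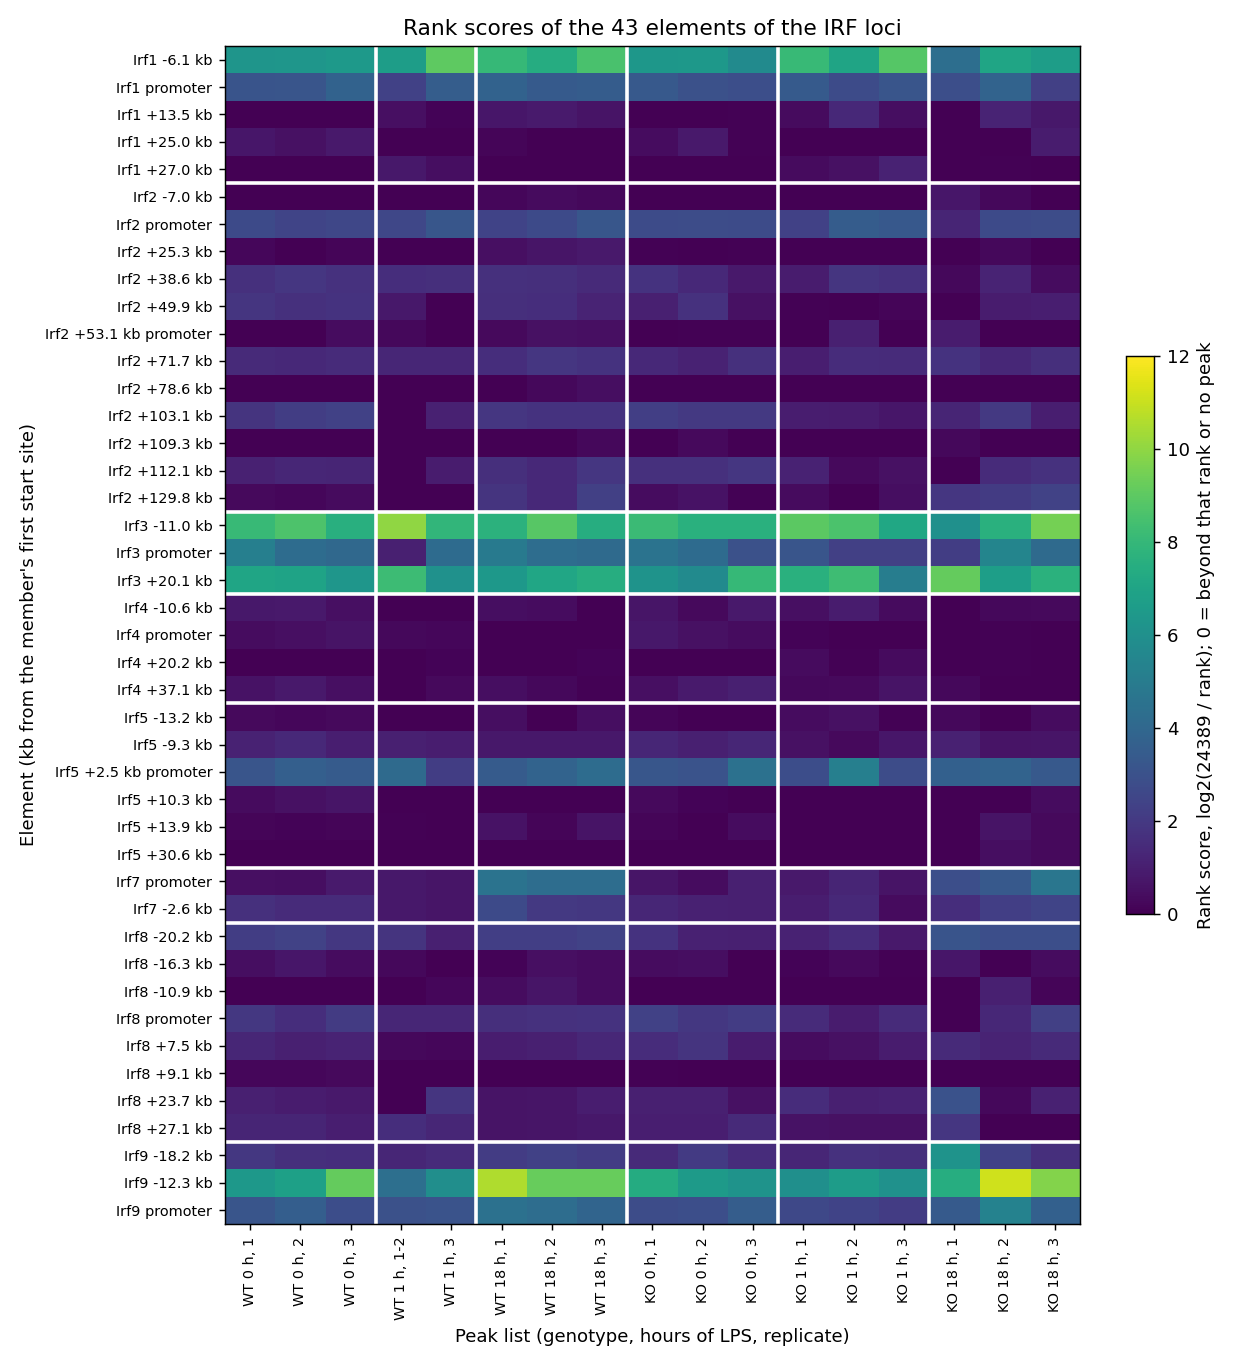
Rank score, log2(24389/rank), of the 43 elements (y axis, named by the gene and the distance of the summit from its first start site in kb) in each of the 17 lists (x axis, by genotype, hours of LPS and replicate). A brighter cell is a better rank, and the Irf7 promoter is brighter in all 6 lists at 18 h than in any list at 0 or 1 h.

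After 18 h of LPS the promoters of Irf7 and Irf9 moved up in rank. The promoter of Irf7, the factor that amplifies type I interferon, moved from ranks around 16326 to ranks around 1260, and the promoter of Irf9, the DNA-binding subunit of ISGF3, moved from 3018 to 1453 (medians of 6 lists). The Psme2 promoter near Irf9 and an element downstream of Irf2 rose as well. A call needed an adjusted p under 0.05, from limma with Benjamini-Hochberg adjustment over all 34155 sites, and a score difference beyond 1 either way, as the mean over both genotypes. By this rule 4 of the 43 elements rose at 18 h (9.30%, against 2.91% of all sites) and 0 fell (against 2.88% of all sites). In either direction, 21 of 43 elements had an unadjusted p under 0.05 (48.8%, against 35.1% of all sites), and 7 passed an adjusted p under 0.05 by the exact permutation test (16.3%, against 14.9%). The median difference over the 43 elements was 0.07, and that over all sites was 0.00.

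The Irf7 promoter element (chr7:141257996-141267095) covers the whole gene, and its best summit lay in an exon 163 bp downstream of the first start site. At 0 h it ranked 17370, 17966 and 13493 in WT and 15282, 18806 and 11660 in KO. At 1 h the ranks were 14418 and 15060 in WT and 13650, 10441 and 15545 in KO. At 18 h they were 1014, 1255 and 1264 in WT and 3312, 2385 and 920 in KO. All 6 lists at 18 h were above all 6 at 0 h, with no overlap, while the lists at 1 h overlapped those at 0 h. The score was 0.59 ± 0.23 in WT and 0.70 ± 0.35 in KO at 0 h, and 4.38 ± 0.18 and 3.65 ± 0.96 at 18 h (SD, n = 3 each). The difference was 3.37 (SE 0.26), with an adjusted p of 3.97e-07. The exact permutation test gave 0.005, its lowest possible p for either LPS comparison. The difference was 3.78 in WT and 2.95 in KO, and the difference between the genotypes, -0.83, had an adjusted p of 0.83. Leaving out each list in turn gave 3.10 to 3.56. The call ended when a peak had to cover at least 50% of this wide site (0.76, adjusted p = 0.43). The best summit rested on 68, 54 and 141 reads in WT and 98, 16 and 13 in KO at 0 h, and on 316, 181 and 134 in WT and 24, 31 and 57 in KO at 18 h.

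The second Irf7 element, 2.6 kb upstream (chr7:141268172-141269951), carries the ISRE core shown above. It ranked 7662, 8732 and 8802 in WT and 10102, 11350 and 11660 in KO at 0 h. At 18 h it ranked 3710, 6145 and 6326 in WT and 8178, 5269 and 4434 in KO. The lists overlapped, since KO 18 h replicate 1 ranked below WT 0 h replicate 1. The difference of 0.81 (SE 0.21) had an adjusted p of 0.010 and stayed under the size limit of 1.

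The Irf9 promoter (chr14:55602324-55605467) has its summit 559 bp downstream of the first start site of Irf9. It ranked 2742, 2028 and 3402 in WT and 3565, 3294 and 2082 in KO at 0 h. At 18 h it ranked 1104, 1255 and 1651 in WT and 2311, 606 and 1909 in KO. The groups overlapped through KO 0 h replicate 3, WT 0 h replicate 2 and KO 18 h replicate 1. The difference was 1.04 (SE 0.31, adjusted p = 0.022, unadjusted exact permutation p = 0.010). Adjusted over all sites, the exact p was 0.056, so the call was lost in that test, and it was lost with 50% cover (1.66, adjusted p = 0.22). The value lies close to the size limit, and the call also ended without WT 0 h replicate 3, WT 18 h replicate 1, KO 0 h replicate 1, KO 0 h replicate 2 or KO 18 h replicate 2, with values down to 0.74 in the last case.

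The Psme2 promoter, 12.3 kb upstream of Irf9 (chr14:55589414-55592764), was among the best peaks of the lists. At 0 h it ranked 292, 218 and 42 in WT and 147, 262 and 340 in KO. After 18 h it ranked 16, 41 and 42 in WT and 137, 11 and 28 in KO. WT 0 h replicate 3 and KO 18 h replicate 1 made the groups overlap. The difference was 2.49 (SE 0.64, adjusted p = 0.0090, exact permutation p = 0.005). Leaving out KO 18 h replicate 1 raised it to 2.98. With 50% cover it was 3.36 and the call ended (adjusted p = 0.28).

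At Irf2, the element 129.8 kb downstream of the start site (chr8:46867193-46870072, intergenic) rose at 18 h. It ranked 19562, 20964 and 19107 in WT and 18252, 16116 and 22922 in KO at 0 h. At 1 h the ranks were 28940 in WT (no peak in replicate 1-2) and 18896, 30745 and 17691 in KO. At 18 h the ranks were 7094, 9304 and 5004 in WT and 6567, 5716 and 4714 in KO. Every list at 18 h was above every list at 0 h. The difference was 1.64 (SE 0.17, adjusted p = 3.71e-06, exact permutation p = 0.005), 1.52 in WT and 1.75 in KO. The call ended with 50% cover (0.50, adjusted p = 0.28) and, by size, with the best 10000 peaks of each list (0.68, adjusted p = 0.0015). The Irf2 promoter (chr8:46738018-46742384), which holds an ISRE core, a composite and a GAS, differed by -0.15 at 18 h (95% interval -0.77 to 0.47) and by 0.29 at 1 h (-0.36 to 0.95). The second Irf2 promoter, 53.1 kb into the gene, ranked from 11685 to 35268 where it had a peak and differed by 0.28 at 18 h (-0.10 to 0.67).

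**Figure D3:**
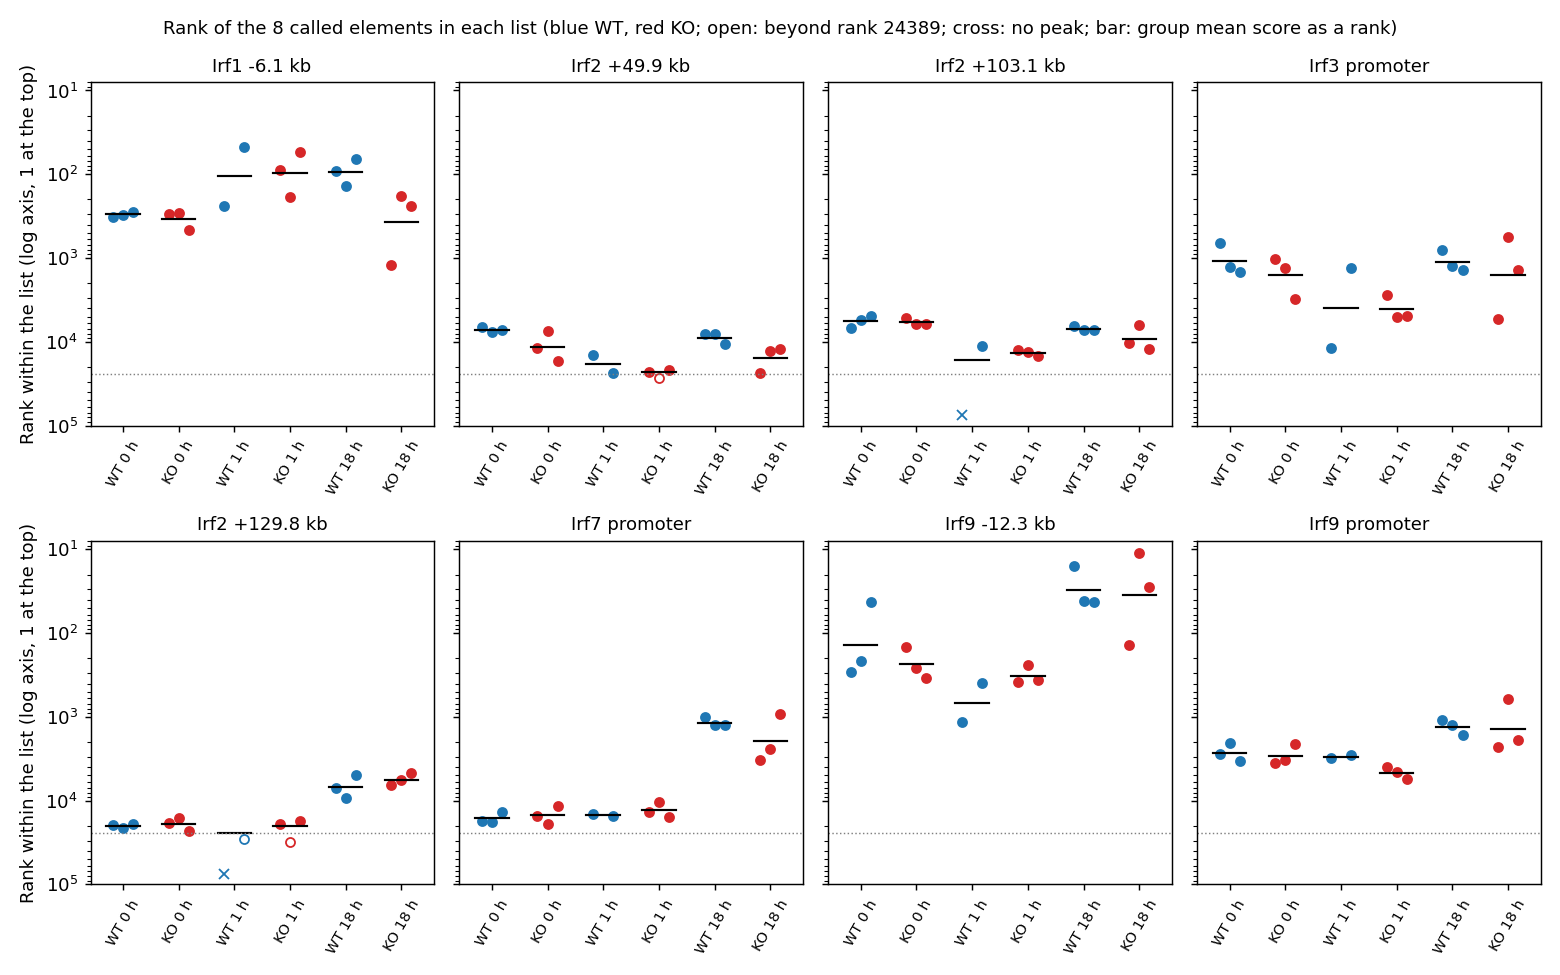
Rank inside the list (y axis, log scale with rank 1 at the top) of the 8 called elements in each group (x axis, genotype and hours of LPS). Points are lists, blue for WT and red for KO, open points lie beyond rank 24389, crosses mark no peak and bars are the group mean score turned back into a rank. The Irf7 promoter and the Irf2 element at +129.8 kb separate 18 h from 0 h in all lists, and the Irf2 element at +103.1 kb separates 1 h from 0 h.

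At 1 h of LPS other elements moved. The element upstream of Irf1, an early response gene, rose. The intronic Irf2 elements at 49.9 and 103.1 kb and the promoter shared by Irf3 and Bcl2l12 fell in rank. In all, 1 of 43 elements rose (2.33%, against 5.22% of all sites) and 3 fell (6.98%, against 3.33%). The median difference was -0.15 over the elements and -0.02 over all sites. The lists at 1 h and at 18 h were compared with the same lists at 0 h.

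The Irf1 element 6.1 kb upstream ranked 320, 306 and 282 in WT and 296, 287 and 459 in KO at 0 h. After 1 h it ranked 240 and 47 in WT and 90, 188 and 54 in KO. All 5 lists at 1 h were above all 6 lists at 0 h. The difference was 1.66 (SE 0.58), with an adjusted p of 0.040 and an exact permutation p of 0.005, and it was 1.51 in WT and 1.80 in KO. At 18 h the lists ranked 92, 140 and 66 in WT and 1220, 180 and 242 in KO, and the difference of 0.76 did not pass the test. The call at 1 h ended on leaving out any list at 0 h, WT 1 h replicate 3 (1.07, adjusted p = 0.22), KO 1 h replicate 1 or 3, or WT 18 h replicate 1, while the difference stayed at 1.07 or more, and with 50% cover (1.89, adjusted p = 0.57). The Irf1 promoter, which ranked from 1787 to 3331 at 0 h and from 2094 to 4926 at 1 h, differed by -0.20 (95% interval -0.86 to 0.46). A smaller element 27.0 kb downstream of the Irf1 start was within the best 24389 peaks of 0 of 6 lists at 0 h, 5 of 5 at 1 h and 1 of 6 at 18 h. Its difference of 0.65 at 1 h had an adjusted p of 0.00047 by limma. It met the rule of at least 2 lists only through the lists at 1 h, so this p-value is no independent support for a rise.

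The Irf2 element 103.1 kb downstream of the start (chr8:46841534-46845920) reaches to the last part of the gene. It ranked 6887, 5450 and 4910 in WT and 5172, 6139 and 6079 in KO at 0 h. After 1 h the ranks were 11284 in WT (no peak in replicate 1-2) and 12675, 13130 and 14608 in KO. At 18 h the ranks were 6537, 7202 and 7143 in WT and 10273, 6227 and 12164 in KO. All lists at 1 h were below all lists at 0 h, and the list with no peak is the shallowest. The difference at 1 h was -1.38 (SE 0.22, adjusted p = 0.00018, exact permutation p = 0.005). With 50% cover it was 0 (adjusted p = 1), and the call also ended, by size, with the best 10000 peaks (-0.80) and with its summit ranked on its own (-0.85). The intronic Irf2 element at 49.9 kb (chr8:46788754-46790183), with a PU.1-IRF composite near its summit, ranked 6652, 7680 and 7166 in WT and 11921, 7396 and 16815 in KO at 0 h. At 1 h it ranked 14418 and 23650 in WT and 23214, 26728 and 21740 in KO. KO 0 h replicate 3 and WT 1 h replicate 1-2 overlapped. The difference was -1.19 (SE 0.23, adjusted p = 0.00082, exact permutation p = 0.005), and with the best 10000 peaks it was -0.31, under the size limit.

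The promoter of Irf3, the factor that TBK1 phosphorylates, and of Bcl2l12 (chr7:44996684-44999081) ranked 665, 1292 and 1453 in WT and 1026, 1334 and 3088 in KO at 0 h. Ranks of 11828 and 1318 in WT and 2730, 5022 and 4993 in KO were found at 1 h. Of the 5 lists at 1 h, WT replicate 3 and KO replicate 1 lay within the range at 0 h. The difference was -1.61 (SE 0.58, adjusted p = 0.048, unadjusted exact permutation p = 0.025). The exact p adjusted over all sites was 0.079, which ended the call, as did the best 10000 peaks (adjusted p = 0.058), 50% cover (-2.80, adjusted p = 0.082) and the replicate block (-0.64). It was -0.82 (adjusted p = 0.37) without WT 1 h replicate 1-2, and was -0.73 (adjusted p = 0.57) with depth as a covariate. The call also ended without any of the WT lists at 0 or 18 h, KO 0 h replicate 1 or 2, any KO list at 1 h, or KO 18 h replicate 3. In the fit with a replicate block, WT 1 h replicate 1-2 was a block of its own, so that fit also left this list out of the difference. The part of depth in this result was not tested further. At 18 h the difference of the Irf3 promoter was -0.02.

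When each summit was ranked as a peak of its own, chosen after seeing the merged elements, the windows held 62 summit sites. At 1 h 3 rose (4.84%, against 5.34% of all such sites) and 3 fell (4.84%, against 3.88%), and at 18 h 3 rose (4.84%, against 3.03%) and 1 fell (1.61%, against 3.33%). The Irf2 element at 129.8 kb is not among these 62, since its summit lies beyond the window. Ranked in this way it kept its call at 18 h, with a difference of 1.68. The Irf2 element at 103.1 kb resolved into summits at 103.1 and 105.5 kb. The 105.5 kb summit ranked 7660, 5994 and 5404 in WT and 5665, 6858 and 6908 in KO at 0 h. At 1 h it ranked 33032 in WT (no peak in replicate 1-2) and 30344, 26845 and 26156 in KO. At 18 h it ranked 15199, 17484 and 13158 in WT and 36238, 12812 and 14372 in KO. All lists at 0 h were above all others. It fell by 2.06 (SE 0.19, adjusted p = 7.17e-07) at 1 h and by 1.33 (SE 0.18, adjusted p = 5.62e-05) at 18 h. The 103.1 kb summit differed by -0.85 (adjusted p = 0.0082) at 1 h and by 0.05 (adjusted p = 0.95) at 18 h. The better of this pair was the 105.5 kb summit in all 6 lists at 0 h and the 103.1 kb summit in all 4 lists at 1 h with a peak. In 5 of 6 lists at 18 h the 103.1 kb summit was the better, and the pair was tied in KO replicate 3.

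The same view split the Irf5 element (chr6:29522597-29531374), whose merged value differed by -0.12 at 1 h and 0.21 at 18 h. Its summits lay 2.3 kb upstream of the first Irf5 start, 0.3 kb downstream of it and 2.6 kb downstream, at an alternative promoter. The summit at the first start ranked 16696, 18871 and 15622 in WT and 19980, 26699 and 18203 in KO at 0 h. Its ranks at 1 h were 4746 and 11365 in WT and 5805, 12142 and 8108 in KO. Every list at 1 h was above every list at 0 h, and the difference was 1.29 (SE 0.27, adjusted p = 0.0016). The distal Irf5 element 9.3 kb upstream ranked from 9277 to 11938 at 0 h and from 11828 to 19586 at 1 h, a difference of -0.44 (adjusted p = 0.037). The alternative promoter, with a composite and an AP-1 motif, differed by -0.07 at 1 h, and the upstream summit by -0.90 (adjusted p = 0.014), under the size limit. At Irf1, the summit 7.0 kb upstream, with the ISRE core, GAS and NF-kB motif, ranked 26986 in WT (no peak in replicates 1 and 3) and 18974 in KO (no peak in replicates 1 and 3) at 0 h. At 1 h it ranked 6660 and 13704 in WT and 15115, 15432 and 11285 in KO. All 5 lists at 1 h were above those at 0 h, and the difference was 1.13 (SE 0.26, adjusted p = 0.0037). The neighbouring summit at 6.1 kb, with none of the 8 motifs, differed by 1.53 (SE 0.56, adjusted p = 0.049).

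**Figure D4:**
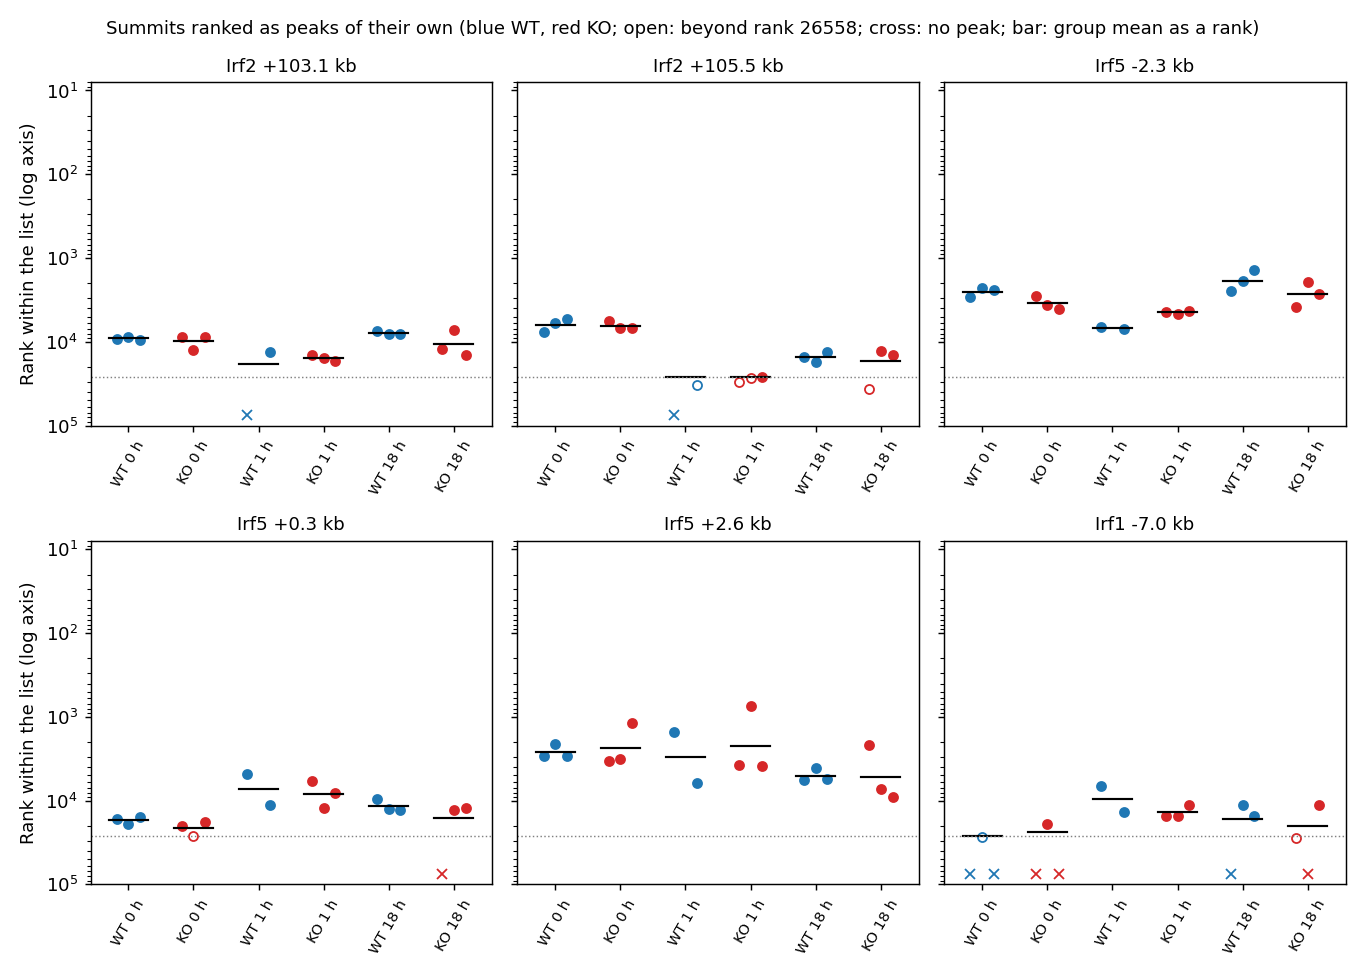
Rank of 6 summits taken as peaks of their own (y axis, log scale) in each group (x axis, genotype and hours of LPS), with lists as points, WT in blue and KO in red, open points beyond rank 26558, crosses for no peak and bars for the group mean as a rank. The Irf2 summit at +105.5 kb is best at 0 h, whereas the Irf5 summit at +0.3 kb and the Irf1 summit 7.0 kb upstream are best at 1 h.

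Below the size limit, more elements passed the adjusted p. At 1 h 3 elements were higher and 11 lower by the adjusted p alone, where 13.8% and 14.3% of all sites were. At 18 h 10 were higher and 6 lower, where 10.9% and 12.8% of all sites were. At Irf4, 3 elements were lower at 18 h by this rule. The Irf4 promoter (chr13:30748779-30750150) ranked 18279, 17164 and 15816 in WT and 14217, 16940 and 18588 in KO at 0 h. At 1 h it ranked 20457 and 20882 in WT and 22141, 26728 and 27793 in KO. At 18 h it ranked 24558, 38492 and 32438 in WT and 23272 in KO (no peak in replicates 1 and 3). The lists at 0 h were above all others, and the differences were -0.40 (adjusted p = 0.0030) at 1 h and -0.53 (adjusted p = 0.00021) at 18 h. Ranks this low leave little room in the score, which ends at rank 24389. The Irf4 element 37.1 kb downstream of the start differed by -0.44 and -0.54.

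Irf8, which pairs with PU.1 in myeloid cells, kept its promoter in every list. The Irf8 promoter (chr8:120735639-120738123), with a pair of GAS matches, ranked from 4843 to 8131 at 0 h and from 8719 to 13130 at 1 h. These lists did not overlap, but the difference of -0.71 had an adjusted p of 0.085 (exact permutation p = 0.010). The element within the gene at 7.5 kb was also lower in every list at 1 h, by -0.87 (SE 0.18, adjusted p = 0.0014). The element 20.2 kb upstream (chr8:120715050-120716904) ranked 5456, 4781 and 6310 in WT and 7124, 11350 and 11660 in KO at 0 h. At 18 h it ranked 5280, 5130 and 4788 in WT and 2770, 3270 and 3268 in KO. In KO the lists at 18 h were all above those at 0 h, while in WT the ranges overlapped, with differences of 1.66 in KO and 0.11 in WT.

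Between the genotypes no difference was called at the IRF loci by both the adjusted p and the size limit. For KO against WT, averaged over the 3 times, 0 of 43 elements were called (against 0.114% of all sites), with 4 at an unadjusted p under 0.05 in limma (9.30%, against 9.44% of all sites) and 4 at an exact permutation p under 0.05 (against 6.98%). The differences ran from -0.68 to 0.42, and the smallest adjusted p was 0.24. In 23 of the 43 elements the mean score was under 1, where the floor at 0 keeps a 2-fold fall from showing and narrows the interval. Of the other 20, the 95% interval lay inside 1 on either side in 14. Taken by time, 0 elements passed the adjusted p at 0 h or at 1 h, and the intronic Irf2 element at 25.3 kb passed it at 18 h (against 0.442% of all sites that were lower by the adjusted p alone). It ranked 17382, 15047 and 13754 in WT and 20443 and 24424 in KO (no peak in replicate 1) at 18 h. Every WT list was above every KO list, and KO minus WT was -0.59 (SE 0.11, adjusted p = 0.017), under the size limit. The KO lists at 18 h were also the shallower ones, and the part of depth in this value was not tested. Its response to 18 h of LPS was 0.55 in WT and 0.03 in KO, and the test of that difference gave -0.52 with an adjusted p of 0.55. The lowest unadjusted exact p, 0.0025, belonged to the Irf2 element at 49.9 kb, where the difference was -0.60. The response to 1 h of LPS differed between the genotypes at 0 elements (against 0.0264% of all sites), and the response to 18 h at 0 elements (against 0.0% of all sites). At an unadjusted p under 0.05 there were 3 and 6 elements by limma (against 6.91% and 6.35% of all sites), and 1 and 2 by the exact permutation test (against 3.59% in both). The intervals of these differences reached from -3.13 to 4.70 at 1 h and from -4.12 to 3.65 at 18 h over the 43 elements. The Irf8 element 20.2 kb upstream had a difference of 1.55 (SE 0.41) between the 18 h responses, with an adjusted p of 0.36 and an exact permutation p of 0.005. KO lists at 18 h were all shallower than WT lists at 18 h, and depth and genotype cannot be told apart there.

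**Figure D5:**
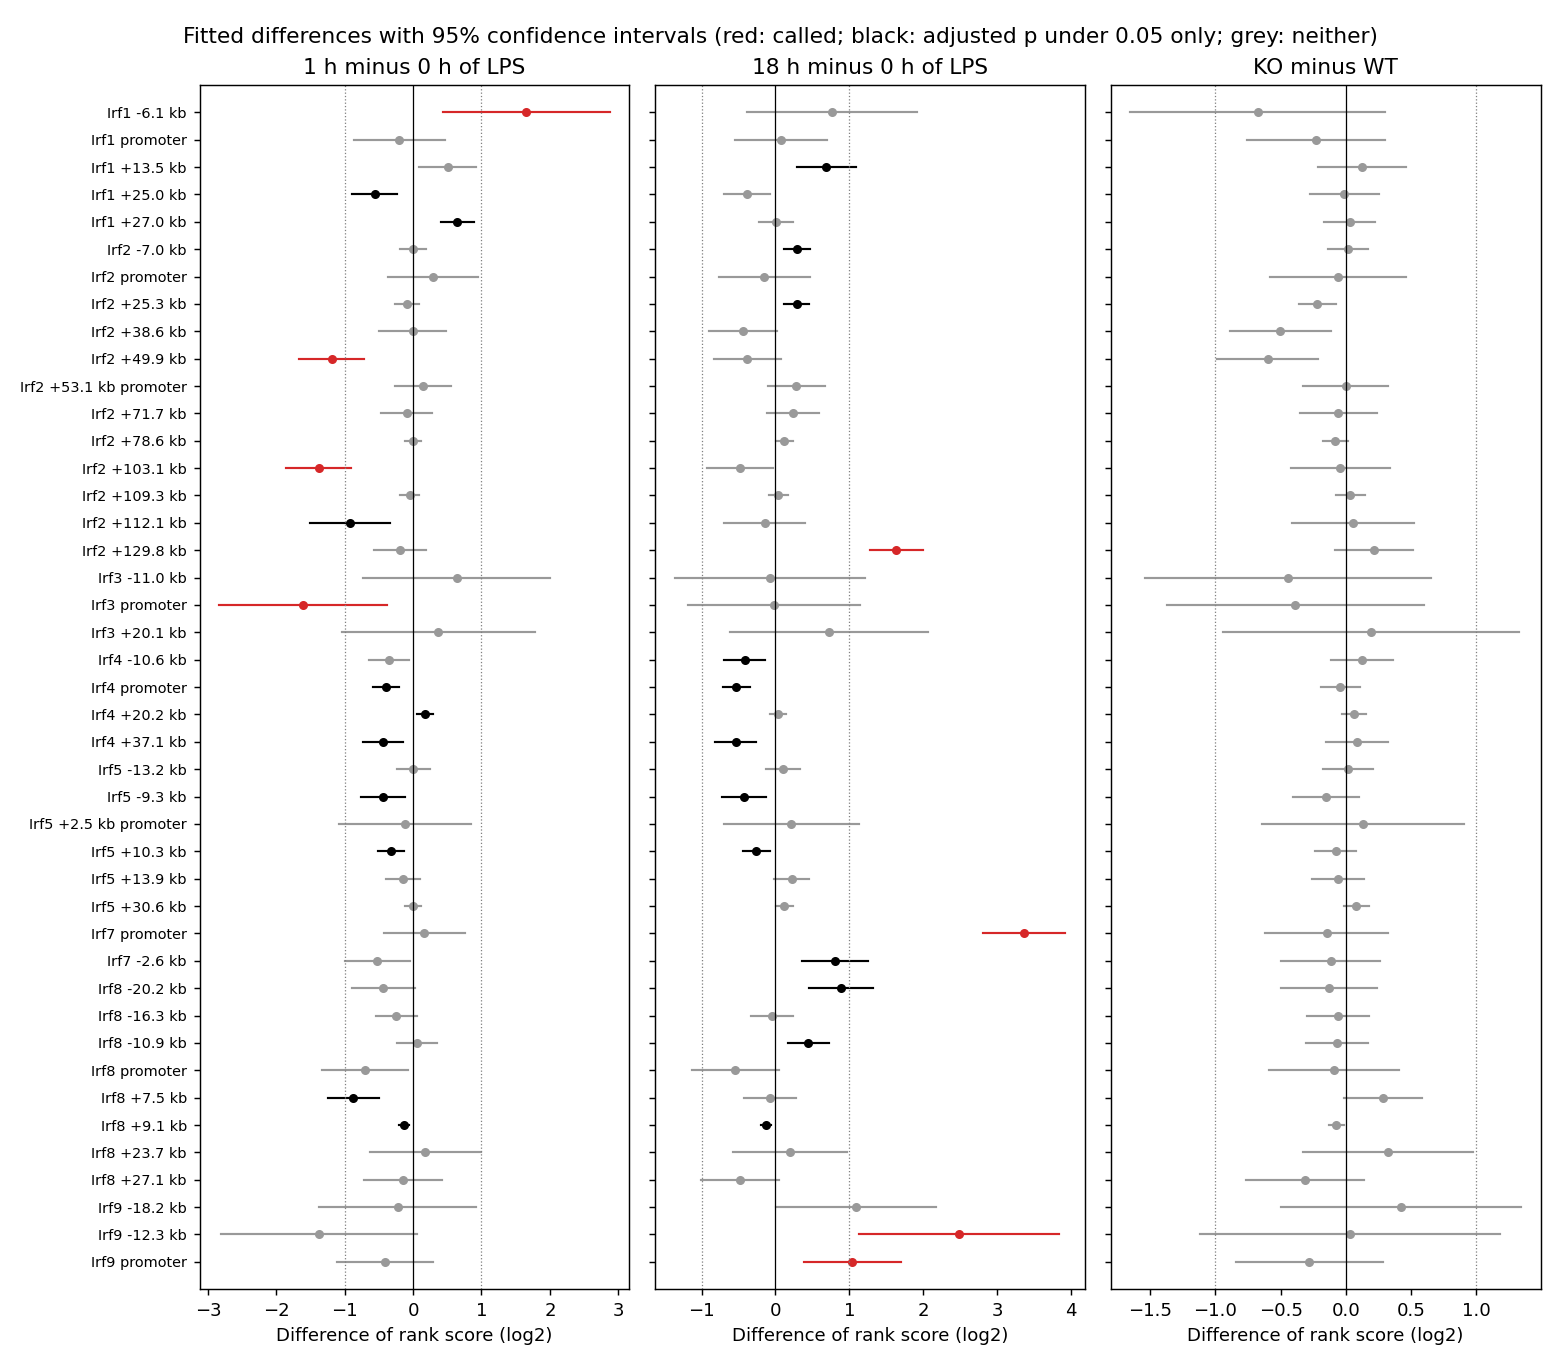
Fitted difference of rank score (x axis, log2) with its 95% confidence interval for each of the 43 elements (y axis), for 1 h minus 0 h, 18 h minus 0 h and KO minus WT. Red marks called elements, black those past the adjusted p alone and grey the rest. In the KO panel no element is red or black, and the differences lie between -0.68 and 0.42.

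The genes that act before and after the IRFs were read by the same rule at their promoters. Of 28 genes of interferon induction and signalling, 26 had a promoter site. At 1 h 3 of them rose (Ifih1, an RNA sensor, Myd88, an adaptor of Toll-like receptors, and Socs3, a feedback inhibitor, by 3.41) and 0 fell. At 18 h 5 rose (Socs1, Socs3, Stat2 by 1.63, Tbk1 and Usp18) and 0 fell. The medians were 0.10 and 0.26. Of all sites, 5.22% rose at 1 h and 2.91% at 18 h, with medians of -0.02 and 0.00. Among partners of IRFs, with 12 promoter sites at 11 genes, Rel (2.38) and Nfkb1 (1.95), both NF-kB subunits, rose at 1 h, and Cebpa fell by 1.36 at 1 h and by 2.92 at 18 h. At 18 h Irf2bp1 rose by 1.26 and Irf2bp2, another IRF2-binding corepressor gene, fell by 1.11. Of 20 interferon-stimulated target genes, 16 had a promoter site, of which 7 rose at 1 h and 11 at 18 h, with medians of 0.82 and 1.37. The largest of them at 18 h were Ccl5, a chemokine gene (3.22), Mx1, an antiviral GTPase gene (3.15), and Rsad2, which encodes viperin (2.79). Ccl5 and Gbp5 scored 0 in all lists at 0 h, so their sites were formed only from lists with LPS. Ifit3, Gbp2, Oas1a and Oasl2 had mean scores of 0 in WT and up to 0.075 in KO at 0 h. The counts, medians and top place of Ccl5 are therefore partly set by how sites were formed. No gene of these 3 lists was called for KO against WT or for a genotype difference in either response. The Irf7 promoter, which is regulated as such a target, differed by 3.37 at 18 h on the same scale.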

How the data were processed

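Bone marrow-derived macrophages were profiled by ATAC-seq. The authors trimmed the reads with cutadapt 2.6 and mapped them to mm10 with the snakeATAC pipeline at its default settings, which are not given in the sources used here. One peak list was deposited per sample, and the notes also name DiffBind 3.0.15. The deposited score column is an integer derived from the q-value, the deposited fold column is the ratio of pileup to background at the summit, and the deposited p-value and q-value columns are on the −log10 scale. No read counts per site were used. Values of different lists depend on depth and were not compared, and each list was ordered by its own −log10 p-value. The depth given is a relative index, worked out for each list from the background level that its fold and p-value columns imply. This level was divided by the shortest peak of the list. The fits with depth as a covariate used this index, and so carry its uncertainty for KO 18 h replicate 1.

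Entries that shared an interval were reduced to their best summit (808470 intervals in all), ties took their mean rank, and sites were merged from the best 24389 peaks of each list, by at least 1 bp of overlap, when seen in at least 2 lists. Rank scores were fitted with limma 3.58.1 (R 4.3.3, trend and robust options) on the 6 group means, with Benjamini-Hochberg adjustment over all 34155 sites, beside a two-sided exact permutation test that regrouped lists within genotype or time (200 regroupings at 1 h, 400 at 18 h, 4000 for KO against WT). On scores simulated for 1 h against 0 h, with differences of 2 and 4, the fit recovered 90 and 96 of 100 changed sites. Changes were placed only at sites with a mean score over 1, with normal noise and no tied ranks. No change was simulated in the other comparisons or near the size limit of 1. The recovery does not cover the 23 elements with a mean score under 1. Annotation was GENCODE M21. The elements named in the text are those called in any comparison, each promoter and the best distal element of each gene. The remaining elements named were chosen after their values were seen. The members, the gene lists and the alternatives were chosen with earlier results of these data known. Replicate numbers were shared between groups, but lists with the same number did not deviate together (35 correlations, -0.23 to 0.21), so no block was used.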

Additional observations from a re-analysis of the deposited data

How the results depend on the processing

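Of the 8 called elements, no difference changed sign under any of 27 alternatives, and that of the Irf2 element at 103.1 kb fell to 0 with 50% cover. The 4 elements called at 1 h (9.30%, against 8.55% of all sites in either direction) were 1 of 24 with the best 10000 peaks of each list (4.17%, against 9.72% of the sites then tested), 10 with all deposited intervals ranked (23.3%, against 22.6%), 7 when a peak had to cover 50% of the site (16.3%, against 7.47%), 14 with no limit on size (32.6%, against 28.2%) and 2 at an adjusted p under 0.01 (4.65%, against 7.34%). The 4 called at 18 h (9.30%, against 5.80%) were 9 with all intervals ranked (20.9%, against 18.2%), 0 with 50% cover (against 2.64%), 16 with no limit on size (37.2%, against 23.7%) and 2 of 30 in 10 kb windows (6.67%, against 5.80%). These are counts under each setting, and the elements called need not be the same. With 50% cover the element upstream of Irf1, the Irf2 element at 103.1 kb and the Irf3 promoter lost their calls at 1 h. Most of the 7 were therefore other elements. In that setting a peak that covers less than 50% of a merged site counts as absent. With the best 10000 peaks or in 10 kb windows fewer elements were tested. The causes of the changes in count were not tested. Leaving out each list in turn gave 2 to 4 elements at 1 h and 3 to 5 at 18 h. For KO against WT the count of 0 became 1 of 74 in 50 kb windows (1.35%, against 0.114% of all sites) and stayed 0 on leaving out each list, and the genotype differences of both responses stayed at 0 under the alternatives run. With a replicate block, 3 elements were called at 1 h (6.98%, against 7.61%), 4 at 18 h (9.30%, against 5.75%) and 0 for KO against WT (against 0.117%); the Irf3 promoter then differed by -0.64 (adjusted p = 0.54). Same-numbered lists were not paired by the data, so for the other lists the block only shares a number. Replicate 1-2 was a block of its own, so WT 1 h replicate 1-2 took no part in the differences of that fit. The Irf7 promoter kept its call in 26 of 27 alternatives (0.76 under 50% cover), the Irf2 elements at 49.9, 103.1 and 129.8 kb in 26, 24 and 25, the element 12.3 kb upstream of Irf9 in 26, the Irf9 promoter in 20, the element upstream of Irf1 in 16 and the Irf3 promoter in 9. By the depth index, depth limits WT 1 h replicate 1-2, KO 1 h replicate 2 and KO 0 h replicate 3 most. After them come the KO lists at 18 h as a group. KO 18 h replicate 1 may belong with the shallowest lists, since its index rests on a shortest peak of 66 bp.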

Other observations

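A site 38.9 kb beyond the end of Irf2 (chr8:46885537-46887040, 146.6 kb from its start site) lay outside the 20 kb windows and was the 1 site called for KO against WT within 50 kb of the IRF genes. It was chosen after its values were seen. It ranked 3742, 3694 and 4246 in the WT lists at 0 h, 6958 and 5692 at 1 h, and 3594, 3664 and 4685 at 18 h. In the KO lists it ranked 8377, 7684 and 8354 at 0 h and 15632, 14876 and 12233 at 1 h, and at 18 h it had no peak in replicate 1 and ranked 9784 and 8492 in replicates 2 and 3. Every WT list was above every KO list. The difference of rank score, KO minus WT, was -1.31 (SE 0.19), with an adjusted p of 0.0029 by limma over all sites. The unadjusted exact permutation p was 0.00025, the lowest possible there. After adjustment over all sites, 0 sites passed 0.05 by the exact permutation test for KO against WT, so the call was lost in that test. By time the difference was -1.07 at 0 h, -1.17 at 1 h and -1.68 at 18 h. Leaving out each list in turn gave -1.40 to -1.15 with adjusted p-values up to 0.011, and depth as a covariate gave -1.30 (adjusted p = 0.023). By distance to annotated start sites the nearest protein-coding gene was Irf2, and no readout used here ties the site to a gene.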
